A study of Mus musculus with 2 samples.

Results

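The genes described here encode the mitochondrial ribosomal proteins, the nuclear-encoded proteins of the ribosome inside mitochondria. They were taken as every gene whose symbol starts with Mrpl or Mrps followed by a digit, which gave 78 of the 32285 genes in the count tables, 49 with an Mrpl symbol and 29 with an Mrps symbol. The cells came from the cortex of male mice 4 months of age. In the knockout group the gene Fam69c, which the tables list as Dipk1c, was knocked out, and the other group was wildtype at that gene. Cortices were pooled by genotype, dissociated, stained with the dead-cell dye 7-AAD and sorted, and 1 droplet-based 3' single-cell library was made per genotype. The labels speak of 7 mice, and whether that is per pool or in all is unclear. The strain, the allele and the tissues in which it acts are not given in the sources used here. With 1 library per genotype no difference between the genotypes could be tested, so a difference below is a difference between those 2 libraries, and every interval is a 95% interval that covers counting error only.

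The mitochondrial ribosome makes the few proteins that the mitochondrial genome encodes, all of them subunits of the respiratory chain or of ATP synthase. Its ribosomal RNAs come from the mitochondrial genome, whereas all of its proteins are encoded in the nucleus, made in the cytosol and imported. The large subunit joins amino acids into protein and the small subunit reads the message. Many of the proteins descend from bacterial ribosomal proteins, and others, such as Mrpl41, were added in mitochondria. Of the 78 genes, 51 encode proteins of the large subunit and 26 of the small subunit. Mrps36 is counted in neither, since its product is a component of the 2-oxoglutarate dehydrogenase complex. Mrps30 and Mrps18a carry small-subunit symbols and were placed with the large subunit, where their proteins sit.

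The 78 genes are spread over 17 chromosomes. Mrpl41 (ENSMUSG00000036850) lies on the minus strand at chr2:24974117-24975098 in mm10, and its transcript of 776 bases is shorter than the family's median of 1224.5 bases. The 250 bases before the start are given here for 4 members that are singled out in the results below. Mrpl41 had the highest ratio between the libraries in astrocyte-like cells and Mrpl17 the next. Mrpl10 was high in the knockout library in 2 cell classes, and Mrps22 was among the members whose level differed most between classes. The sequences are from RefSeq on GRCm38.p6, 5′ to 3′ on the strand of the gene. Capitals mark the letters GCGCATGCG of the NRF1 motif or CCGGAAGT of the ETS motif, on either strand. NRF1 and the ETS factor GABP are known activators of nuclear genes for mitochondrial proteins.
Mrpl41, chr2:24975099-24975348, minus strand: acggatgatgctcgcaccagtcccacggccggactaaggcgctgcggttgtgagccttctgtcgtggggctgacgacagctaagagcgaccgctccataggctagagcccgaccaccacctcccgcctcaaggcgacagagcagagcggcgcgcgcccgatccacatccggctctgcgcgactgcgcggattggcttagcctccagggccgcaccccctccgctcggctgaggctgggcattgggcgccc
Mrpl17, chr7:105811088-105811337, minus strand: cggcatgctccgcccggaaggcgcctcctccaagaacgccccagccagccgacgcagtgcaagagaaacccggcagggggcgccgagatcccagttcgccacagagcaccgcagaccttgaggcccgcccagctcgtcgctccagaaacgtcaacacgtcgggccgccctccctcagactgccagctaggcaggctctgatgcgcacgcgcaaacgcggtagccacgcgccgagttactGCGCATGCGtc
Mrpl10, chr11:97041332-97041581, plus strand: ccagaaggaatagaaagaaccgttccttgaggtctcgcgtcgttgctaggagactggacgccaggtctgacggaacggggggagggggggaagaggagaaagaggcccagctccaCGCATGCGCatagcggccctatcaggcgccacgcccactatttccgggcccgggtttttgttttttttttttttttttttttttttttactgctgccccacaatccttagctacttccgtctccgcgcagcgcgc
Mrps22, chr9:98601680-98601929, minus strand: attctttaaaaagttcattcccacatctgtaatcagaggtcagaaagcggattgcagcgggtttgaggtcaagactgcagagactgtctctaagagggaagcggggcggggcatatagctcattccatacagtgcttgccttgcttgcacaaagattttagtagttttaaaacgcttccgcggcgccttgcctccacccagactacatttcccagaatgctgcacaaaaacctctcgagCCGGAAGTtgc

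In the window from 250 bases before to 50 bases after a start, 69 members had a RefSeq sequence. The NRF1 letters were found in 7 of them (10.1%), against 2.39% of the 20267 genes with such a sequence. The ETS letters were found in 12 members (17.4%), against 5.31% of those genes. Neither motif contains the other, and no member held both, against 0.276% of genes. Mrpl41 held neither in this window, of whose upstream part 68.8% was G or C. The NRF1 letters stood in Mrpl17, Mrpl10, Mrpl9, Mrpl22, Mrpl32, Mrpl39 and Mrps18b. The ETS letters stood in Mrps22, Mrps26, Mrps18c, Mrps27, Mrpl3, Mrpl18, Mrpl27, Mrpl33, Mrpl43, Mrpl48, Mrpl51 and Mrpl52. A match describes these letters only and shows no binding.

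The wildtype library held 7150 barcodes with 57166105 unique molecular identifiers (UMIs, each standing for 1 captured RNA molecule) and a median of 4358 per barcode. The knockout library held 9182 barcodes with 75473717 UMIs and a median of 7699. The libraries shared 17 barcodes. Cells were assigned to a class from marker genes, and a minimum of 50 cells per library left 7 classes. Astrocyte-like cells, with 2677 wildtype and 4292 knockout cells, were the largest class, followed by oligodendrocyte-like (642 and 752), neuroblast-like (232 and 426) and microglia-like cells (256 and 308). Endothelial-like (165 and 255), B cell-like (74 and 82) and T cell-like cells (58 and 88) were too few for most single members. The 716 wildtype cells that met no rule had a median of 1741.5 UMIs, against 6516 in 581 such knockout cells. Dipk1c itself stood at 56.6 CPM (the UMIs of a gene per 1000000 UMIs of its class) in wildtype and 32.8 in knockout astrocyte-like cells, so RNA of the targeted gene was still counted in the library labelled knockout. The files do not show which part of the gene the allele removes, so this is no check of the label.

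All 78 members had UMIs in both libraries, and none was below 10 CPM on average over all kept cells. The median member stood at 59.2 CPM, and 48 members were above 50 CPM. These values are CPM over all kept cells and count each molecule once at its 3' end, so they were not divided by transcript length. Mrps33 was the most abundant, at 158 CPM in the wildtype and 197 CPM in the knockout library. It was followed by Mrps14 (112 and 158 CPM), Mrpl52 (110 and 136 CPM) and Mrpl20 (108 and 137 CPM), 2 proteins of each subunit among the top 4. At the other end stood Mrps27, Mrps2, Mrpl37 and Mrpl39, and in astrocyte-like cells these had between 12.0 CPM (Mrps27, wildtype) and 21.03 CPM (Mrpl39, knockout).

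Neuroblast-like cells, which were not split into cycling and other cells, had the highest summed level of the family. In them the 78 genes together took 5555 CPM in the wildtype (95% Poisson interval 5476 to 5636) and 6596 CPM in the knockout library (6524 to 6669). Astrocyte-like cells came next with 4332 CPM (4306 to 4357) and 5458 CPM (5434 to 5482), and then oligodendrocyte-like cells with 4075 CPM (4033 to 4118) and 4609 CPM (4565 to 4653). Microglia-like cells were lowest in both libraries, at 2947 CPM (2861 to 3035) and 3836 CPM (3735 to 3939). The remaining classes lay close together, at 3611 and 4390 CPM in T cell-like, 3571 and 4101 CPM in B cell-like and 3521 and 4060 CPM in endothelial-like cells. In the wildtype library the intervals of those 3 classes overlapped, so their order is not resolved. The knockout value exceeded the wildtype value in each of the 7 classes.

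**Figure D1:**
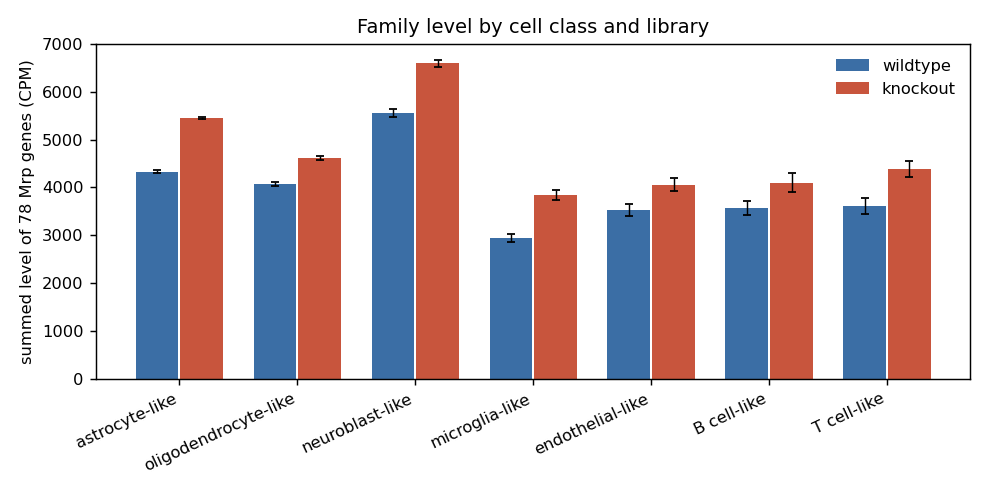
Summed level of the 78 Mrp genes in CPM (vertical axis) in each cell class (horizontal axis), with 1 bar per library and 95% Poisson intervals. Neuroblast-like cells are highest (5555 and 6596 CPM), microglia-like cells are lowest (2947 and 3836 CPM), and the knockout bar is taller than the wildtype bar in every class.

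Neuroblast-like cells were the class with the highest level for 43 members in the wildtype and 40 in the knockout library, 35 of them the same members. The class with the highest level was the same in both libraries for 56 of the 78. Microglia-like cells were the lowest class for 26 members in the wildtype and 14 in the knockout library, where B cell-like cells were lowest for 21. Several members had an order of their own. Mrpl48, a large-subunit protein, was highest in oligodendrocyte-like cells, at 134 CPM in wildtype and 142 in knockout cells, against 60.0 and 69.0 CPM in astrocyte-like and 35.7 and 43.1 CPM in neuroblast-like cells. Mrpl48 has a named pseudogene, whose reads the counting may have shared with it. Mrpl53, also of the large subunit, ranged from 21.9 CPM in T cell-like to 113 CPM in neuroblast-like wildtype cells, and from 25.1 CPM in B cell-like to 155 CPM in neuroblast-like knockout cells. Mrps22, of the small subunit, ranged from 1.82 CPM in T cell-like to 43.2 CPM in neuroblast-like wildtype cells, and from 6.57 to 47.8 CPM between the same classes in the knockout library. Mrpl28 stood at 108 and 135 CPM in neuroblast-like cells and at 19.997 and 40.6 CPM in microglia-like cells. These 4 had the widest span of level over the classes, and the low ends rest on few UMIs.

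The family was higher in the knockout library in every class, by between 0.18 and 0.38 on a log2 scale of the summed level. In astrocyte-like cells the log2 ratio of the sums, knockout over wildtype, was 0.33 (0.32 to 0.34), and 73 of the 78 members were higher, where 39.0% of the 13792 genes measured there were higher. A gene counts as measured in a class with at least 50 UMIs over both libraries, and ratios of single genes have 10 CPM added to both levels unless said otherwise. The median member was at 0.30 and the median of all genes at -0.05. Scaling by a trimmed mean in place of the class total put 98.7% of members and 54.9% of genes higher there, with the ratio of the sums at 0.50. In oligodendrocyte-like cells the ratio of the sums was 0.18 (0.16 to 0.20) and 65 of 78 members were higher, against 41.1% of genes, but with each cell weighed the same the ratio was 0.08. In neuroblast-like cells the ratio was 0.25 (0.22 to 0.27) and 69 of 78 members were higher, against 38.2% of genes. In microglia-like cells the ratio was 0.38 (0.32 to 0.44) and 63 of 72 measured members were higher, against 51.3% of genes. The 3 small classes gave 0.20 to 0.28, with 45 of 61 members higher in endothelial-like (45.9% of genes), 24 of 32 in B cell-like (42.7%) and 30 of 37 in T cell-like cells (46.1%).

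**Figure D2:**
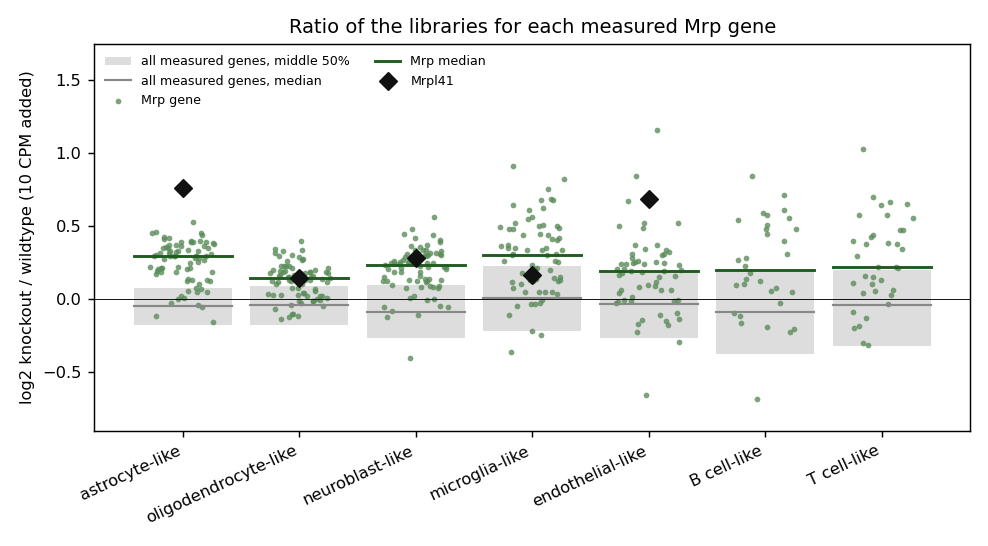
Log2 ratio of knockout over wildtype level (10 CPM added, vertical axis) of every measured Mrp gene in each cell class (horizontal axis), with the median of the members (green) and of all measured genes (grey, with a band for their middle 50%) as lines and Mrpl41 as a diamond where it had 50 UMIs. The median of the members lies above the median of all genes in every class, and the Mrpl41 diamond tops the family only in the astrocyte-like column.

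In astrocyte-like cells 2 members, Mrpl41 and Mrpl17, reached a log2 ratio of 0.5, against 0.522% of genes, and no member was at -0.5 or below, against 1.62% of genes. Under trimmed mean scaling 22 members reached 0.5, against 3.39% of genes. No oligodendrocyte-like member reached 0.5 (0.7% of genes did) or -0.5 (1.49%). In neuroblast-like cells Mrpl10 reached 0.5, against 0.616% of genes, and none reached -0.5 (5.76%). In microglia-like cells, where counts are lower and ratios spread more widely, 15 of 72 members reached 0.5, against 6.35% of genes, and none reached -0.5 (5.91%). Those at 0.75 or more were Mrpl30 (0.91), Mrpl17 (0.82) and Mrpl28 (0.75), singled out after their values were seen. Among the small classes 7, 8 and 8 members reached 0.5 in endothelial-like (5.26% of genes), B cell-like (6.06%) and T cell-like cells (6.80%). Mrpl9 in endothelial-like cells (8.15% of genes) and Mrpl32 in B cell-like cells (17.4%) were the members at -0.5 or below, and no T cell-like member was (12.9%).

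Across the 4 larger classes, those of 200 or more cells per library, 72 members were measured in all of them. Of these, 52 (72.2%) were higher in the knockout library in all 4 classes, against 23.3% of the 6139 genes measured in all 4, and 2 were lower in all 4. Mrpl17, a large-subunit protein that lies at the peptide exit side of the ribosome, reached 0.5 in astrocyte-like and microglia-like cells. Its level was 85.2 CPM in wildtype and 127 in knockout astrocyte-like cells and 52.7 and 101 CPM in microglia-like cells, whereas oligodendrocyte-like cells had 78.3 and 86.3 CPM. Mrpl10, a protein of the stalk of the large subunit that recruits translation factors, reached 0.5 in neuroblast-like cells (12.9 and 23.9 CPM) and in microglia-like cells (18.0 and 31.5 CPM). The microglia-like value of Mrpl10 rests on 27 and 45 UMIs. Both genes hold the NRF1 letters shown above. The other members with these letters, Mrpl9, Mrpl22, Mrpl32, Mrpl39 and Mrps18b, reached 0.5 in none of the 4 larger classes. The members that reached 0.5 in 1 of these classes only, such as Mrpl41, Mrpl30 and Mrpl28, were not among those with the letters. A link between the letters and the ratios was not tested.

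In astrocyte-like cells the members with the highest ratios after Mrpl41 and Mrpl17 came from both subunits. Mrps14 stood at 134 CPM in the wildtype and 188 in the knockout library, and Mrps12, the small-subunit protein of the decoding centre, at 63.7 and 91.0 CPM. Mrpl21 (46.8 and 68.0 CPM), Mrpl11 (42.8 and 61.8 CPM), a protein of the stalk base, Mrps34 (63.1 and 88.2 CPM) and Mrpl20 (90.7 and 125 CPM) completed the highest 8, with log2 ratios of 0.42 to 0.46 for these 6. Mrps34 shares exon sequence on the same strand with Nme3 (7.74 and 11.4 CPM), so reads of the shared part may have been lost or split. Mrps12 also had the highest ratio of the family in oligodendrocyte-like cells, at 73.6 and 100 CPM.

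The 5 members that were lower in knockout astrocyte-like cells were Mrps10, Mrpl15, Mrps9, Mrpl37 and Mrpl19. Mrps10 stood at 36.1 and 31.4 CPM, a log2 ratio without added counts of -0.20 (-0.33 to -0.07), and Mrpl15 at 102 and 93.9 CPM, or -0.13 (-0.20 to -0.05). The counting intervals of these 2 excluded 0. For Mrps9 (40.5 and 38.8 CPM), Mrpl37 (17.3 and 16.5 CPM) and Mrpl19 (33.7 and 32.9 CPM) the intervals included 0. Under trimmed mean scaling 77 of the 78 members were higher, so the direction of most of these 5 depends on the scaling. Mrps2, Mrpl9 and Mrps5 lay within 0.02 of equality, and the abundant Mrps5 had 117 and 118 CPM. Mrpl15 and Mrps5 were both more abundant in wildtype astrocyte-like cells than Mrpl20, a member of the highest 8.

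**Figure D3:**
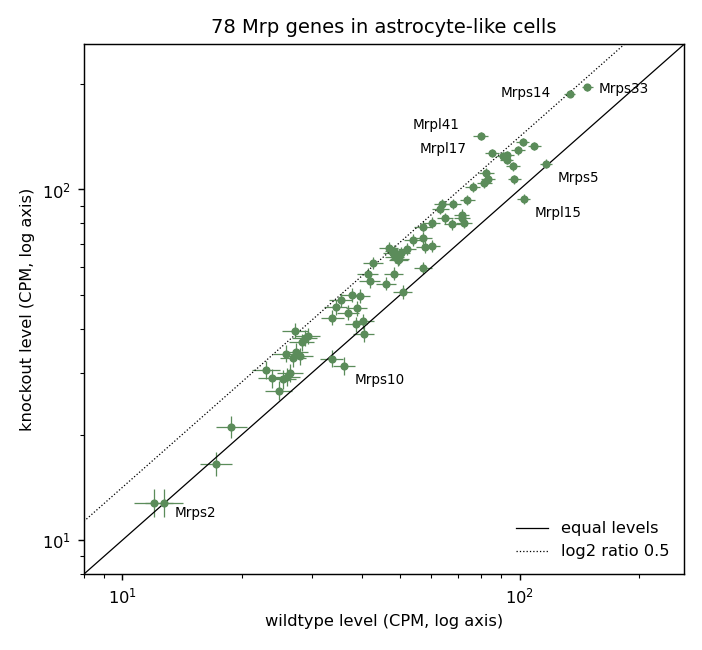
Level of the 78 Mrp genes in astrocyte-like cells of the knockout library (vertical axis, CPM, log scale) against the wildtype library (horizontal axis, CPM, log scale), with 95% Poisson intervals. The solid line marks equal levels and the dotted line a log2 ratio of 0.5: 73 points lie above the solid line, and Mrpl41 (80.0 and 142 CPM) lies furthest above it.

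In the 4 larger classes the subunits, and members of different evolutionary origin, had ratios of like size. In astrocyte-like cells the summed level of the 51 large-subunit genes was 2742 CPM in the wildtype and 3482 CPM in the knockout library, a log2 ratio of 0.35 (0.33 to 0.36). The 26 small-subunit genes had 1491 and 1846 CPM, a ratio of 0.31 (0.29 to 0.33). Members with a bacterial counterpart gave 0.31 (0.30 to 0.33) over 45 genes and those particular to mitochondria 0.36 (0.34 to 0.38) over 32 genes, a group that holds Mrpl41. Before rounding, the astrocyte-like intervals overlapped in neither contrast. Mrpl41 is also in the large-subunit group, and the sums were not repeated without it, so its part in the 2 contrasts was not tested. The median member was at 0.30 in the large and 0.24 in the small subunit. By origin the medians were 0.30 with a bacterial counterpart and 0.28 for those particular to mitochondria. In neuroblast-like cells the large and small subunit stood at 0.26 (0.23 to 0.29) and 0.22 (0.18 to 0.27). In microglia-like cells they stood at 0.40 (0.33 to 0.47) and 0.33 (0.23 to 0.43), so there the intervals overlapped. Endothelial-like cells had 0.18 for the large and 0.27 for the small subunit. B cell-like cells had 0.25 and 0.07 and T cell-like cells 0.25 and 0.35. In each of these small classes the intervals overlapped too. For 29 members the exons overlap another counted gene on either strand, and the sources used here do not give the strand setting of the counting. Those 29 had a median ratio of 0.21 in astrocyte-like cells and the other 49 a median of 0.31. Mrps6, which shares exons with Slc5a3, is one of them, and Slc5a3 went the other way, with 42.7 CPM in wildtype and 28.1 in knockout astrocyte-like cells.

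Mrpl41 stood apart from the family in astrocyte-like cells. This large-subunit protein has no bacterial counterpart and has also been described as a partner of the survival protein BCL2. Its level was 80.0 CPM in the wildtype (76.5 to 83.5, from 2067 UMIs) and 142 CPM in the knockout library (139 to 146, from 5292 UMIs). The ratio was 1.78-fold (1.69 to 1.87), or 0.83 on the log2 scale (0.76 to 0.91), the highest of the 78 members. Mrpl17, the next member, had 0.58 (0.50 to 0.65), so the counting intervals of the 2 genes did not overlap. With 10 CPM added, Mrpl41 lay 0.46 above the median of the family and 0.23 above Mrpl17, and it was the 12th highest of the 13792 genes measured in the class.

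In the other large classes Mrpl41 sat inside the family. Oligodendrocyte-like cells had 73.0 CPM in the wildtype and 81.9 in the knockout library, a log2 ratio of 0.17 (0.01 to 0.32), place 38 of 78 members from the top. Neuroblast-like cells had 63.3 and 79.1 CPM, a ratio of 0.32 (0.08 to 0.57), place 27 of 78. Microglia-like cells had 32.0 and 37.1 CPM from 48 and 53 UMIs, a ratio of 0.21 (-0.38 to 0.81), place 48 of 72. The order of levels by class in the wildtype library was thus astrocyte-like, oligodendrocyte-like, neuroblast-like, endothelial-like (47.4 CPM), T cell-like (32.8 CPM), microglia-like and B cell-like cells (28.1 CPM). No pair of neighbours in that order differed beyond their counting intervals. In the knockout library astrocyte-like cells (139 to 146 CPM) stood clear of the next classes, endothelial-like (65.4 to 103 CPM) and oligodendrocyte-like cells (76.1 to 88.0 CPM).

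Endothelial-like cells had 47.4 CPM in the wildtype and 82.6 in the knockout library, a log2 ratio of 0.80 (0.25 to 1.37) and place 3 of 61 members. That value rests on 43 and 79 UMIs. The 7 astrocyte markers took 0.0517% of the UMIs of wildtype and 0.0725% of those of knockout endothelial-like cells, and all 7 had UMIs there in both libraries. The same markers took 1.55% and 1.77% in astrocyte-like cells, and 0.0459% and 0.0593% in microglia-like cells. Their part in the endothelial-like ratio was not tested. B cell-like (17 and 16 UMIs) and T cell-like cells (18 and 31 UMIs) were below the 50 UMIs set for a measured gene, and their intervals included 0.

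The difference between classes was set out directly. The log2 ratio of Mrpl41 in astrocyte-like cells exceeded that in oligodendrocyte-like cells by 0.67 (0.50 to 0.84), that in neuroblast-like cells by 0.51 (0.26 to 0.76) and that in microglia-like cells by 0.62 (0.05 to 1.19). Against endothelial-like (0.03, -0.51 to 0.57), B cell-like (0.45, -0.54 to 1.44) and T cell-like cells (0.20, -0.64 to 1.04) the interval included 0. As a share of the family's own UMIs, which does not depend on the scaling of the libraries, Mrpl41 took 1.85% (1.77% to 1.93%) in wildtype and 2.61% (2.54% to 2.68%) in knockout astrocyte-like cells. In oligodendrocyte-like cells the share was 1.79% and 1.78%, in neuroblast-like cells 1.14% and 1.199%, and in microglia-like cells 1.09% and 0.97%. Endothelial-like cells went from 1.35% (0.98% to 1.81%) to 2.04% (1.61% to 2.53%), so a higher share in the knockout library was not particular to astrocyte-like cells. B cell-like cells had 0.79% and 0.89% and T cell-like cells 0.91% and 1.16%. These shares carry exact binomial (Clopper-Pearson) intervals.

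The difference was also seen in how many cells held an Mrpl41 UMI. Among astrocyte-like cells 41.95% of wildtype and 56.0% of knockout cells held at least 1, although the median cell was deeper in the wildtype class (9992 UMIs against 8859). With each cell thinned to 2000 UMIs the shares were 13.1% (11.7% to 14.6%) and 22.1% (20.8% to 23.4%), leaving out 621 wildtype and 308 knockout cells with fewer. Oligodendrocyte-like cells gave 16.0% (13.0% to 19.3%) and 14.4% (11.9% to 17.2%) after thinning, and microglia-like cells 4.71% (2.18% to 8.76%) and 6.42% (3.56% to 10.5%). Endothelial-like cells gave 6.96% (3.05% to 13.2%) and 18.8% (13.2% to 25.5%), and neuroblast-like cells 11.7% (7.70% to 16.8%) and 14.8% (11.3% to 18.9%). Before thinning the share in neuroblast-like cells was lower in the knockout library, at 56.5% and 49.5%, where the median cell had 11726 and 9344 UMIs. Every class held Mrpl41 UMIs, so no class gives a background share for this gene.

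Within astrocyte-like cells, Mrpl41 was compared in subsets that had a like mitochondrial share of UMIs or fell in the same cluster. Its log2 ratio was 0.58 (0.42 to 0.74) in cells with up to 3% mitochondrial UMIs, 0.80 (0.70 to 0.91) from 3% to 5%, 1.06 (0.92 to 1.21) from 5% to 10% and 0.85 (0.37 to 1.35) from 10% to 20%. It was the highest member in all 4 subsets. In the lowest subset the median cell had 2718 UMIs in the wildtype and 10167 in the knockout library. In the 6 clusters that held enough of these cells the ratio lay between 0.41 (0.21 to 0.62) and 0.97 (0.55 to 1.40), with Mrpl41 in place 1 in 4 clusters, place 2 in cluster 1 and place 3 in cluster 3.

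The libraries divided differently over those clusters. Cluster 1 held 133 wildtype and 1207 knockout cells and had a family sum of 5695 and 6483 CPM, whereas cluster 6 held 558 and 322 cells and had 3677 and 3714 CPM. Within clusters the median member ranged from 0.00 in cluster 6 to 0.22 in cluster 5, each below the 0.30 of the whole class. When the clusters were given the same weights in both libraries (their cells over both), the ratio of the family's sums was 0.17 in place of 0.33, the median member was at 0.12, 87.2% of members were higher and Mrpl41 had a ratio of 0.62, first of 78. The clusters were formed from the 2000 most variable genes, with the members and some other gene groups left out beforehand.

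**Figure D4:**
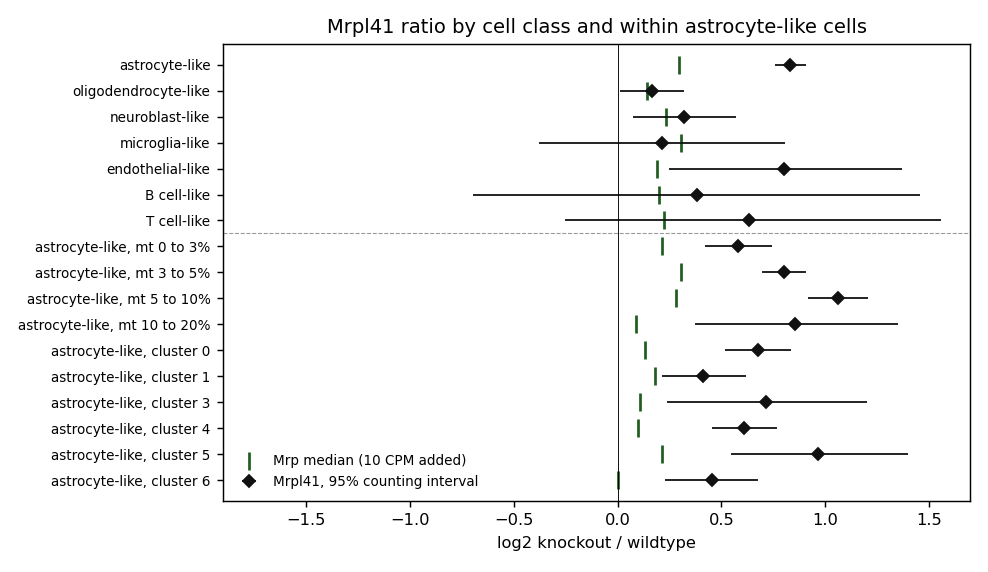
Log2 ratio of knockout over wildtype Mrpl41 level (horizontal axis) in the 7 cell classes and in subsets of astrocyte-like cells by mitochondrial share of UMIs or by cluster (vertical axis). Diamonds are Mrpl41 with 95% counting intervals and green bars the median of the Mrp genes with 10 CPM added: Mrpl41 lies right of the bar in all 10 subsets, at 0.41 to 1.06, and close to it in oligodendrocyte-like, neuroblast-like and microglia-like cells.

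Short transcripts were higher in the knockout library as a whole, and most members have short transcripts. In astrocyte-like cells the median ratio of all genes was 0.15 for transcripts of 727 to 977.5 bases and -0.29 for the longest. Split at the family's median length of 1224.5 bases, the shorter 39 members had a median of 0.33 with 38 higher, where all genes of those lengths had 0.12 with 71.7% higher. The longer 39 members had a median of 0.21 with 35 higher, against -0.07 and 33.1% for all longer genes. The 13 members over 3000 bases had a median of 0.12 with 12 higher, against -0.15 and 15.8%. Mrpl17, whose transcript is 4164 bases long, is among these 13.

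With the trend over length removed, the median member of astrocyte-like cells was at 0.22, and 73 of 78 members were above 0. After this step the median was 0.07 in oligodendrocyte-like, 0.13 in neuroblast-like and 0.11 in microglia-like cells, with 58 of 78, 65 of 78 and 48 of 72 members above 0. Mrpl41 was at 0.61 in astrocyte-like cells, second in the family behind Mrpl17. Among the 687 genes in its own length bin, whose median was 0.15, it was the highest. The part of transcript length in the family's ratio beyond this step was not tested.

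**Figure D5:**
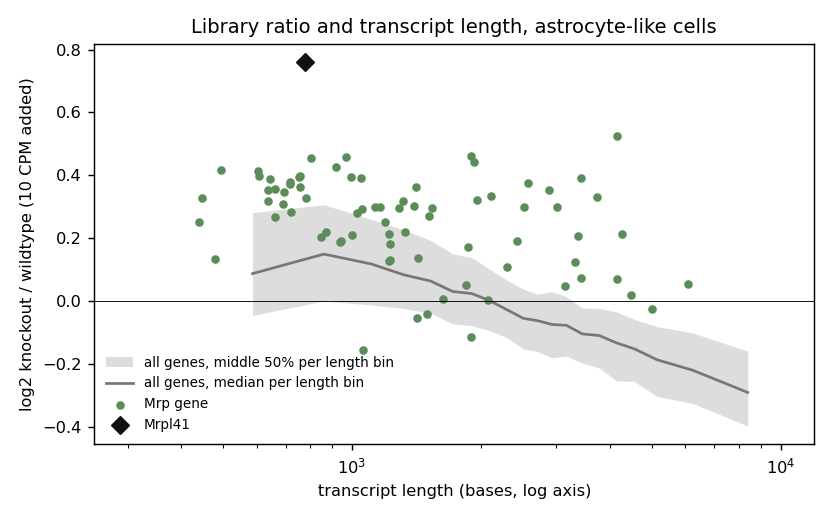
Log2 ratio of knockout over wildtype level in astrocyte-like cells (10 CPM added, vertical axis) against transcript length in bases (horizontal axis, log scale) for the Mrp genes, with the median and quartiles of all genes in 20 length bins. The median of all genes goes from 0.15 in the second shortest bin to -0.29 in the longest, most members lie above it, and Mrpl41 (776 bases) lies at 0.76.

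The lists of other genes for mitochondrial translation were read beside the 39.0% of all genes that were higher in knockout astrocyte-like cells and their median of -0.05. Of the 5 proteins of the mitochondrial ribosome with other symbols, 4 were higher in knockout astrocyte-like cells and the median was 0.26. Aurkaip1 had 74.0 and 105 CPM and Chchd1 86.2 and 116 CPM, while Ptcd3, a small-subunit protein that binds RNA, had 28.5 and 24.6 CPM. Among 24 genes for ribosome assembly and modification of the ribosomal RNAs, 16 were higher with a median of 0.09. Mtg2, a GTPase that acts on the large subunit, had 23.9 and 31.3 CPM, and Fastkd2, a protein that binds the large ribosomal RNA, had 16.7 and 13.9 CPM. The 15 translation factors had 8 higher and a median of 0.03. Elongation factor Tufm had 33.1 and 38.9 CPM, and Lrpprc, which keeps mitochondrial messages stable, had 28.6 and 18.1 CPM.

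Of 20 genes for aminoacyl-tRNA synthetases and related enzymes, 5 were higher and 15 lower in knockout astrocyte-like cells, with a median of -0.11, where 39.0% of all genes were higher and their median was -0.05. Lars2, the leucyl-tRNA synthetase, had 203 CPM in the wildtype and 133 in the knockout library and was also lower in oligodendrocyte-like (170 and 100 CPM), neuroblast-like (85.8 and 53.1 CPM) and microglia-like cells (149 and 99.3 CPM). Fars2, the phenylalanyl-tRNA synthetase, had 36.2 and 45.8 CPM. Of the 13 proteins encoded in the mitochondrial genome, 4 were higher and 9 lower with a median of -0.14. Their summed level was 47785 CPM in the wildtype and 48144 CPM in the knockout library, a log2 ratio of 0.01, led by abundant messages such as mt-Atp6 (7738 and 8774 CPM). The message mt-Nd6, which is transcribed from the other strand than the rest, had 134 and 55.9 CPM. Classes differed in these 13 genes. Neuroblast-like cells had 8 higher with a median of 0.07, where 38.2% of genes were higher. Microglia-like cells had 7 higher with a median of 0.10 (51.3% of genes), and oligodendrocyte-like cells 5 with a median of -0.13 (41.1%).

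The genes beside Mrpl41 on chromosome 2 had smaller ratios in astrocyte-like cells. Dph7 lies next to it and had 15.7 and 16.4 CPM. Pnpla7, whose annotation begins 935 bases from Mrpl41 on the opposite strand, had 65.4 and 79.3 CPM, a log2 ratio of 0.28 (0.19 to 0.37). Zmynd19, the next gene beyond Dph7, had 7.70 and 9.57 CPM. By the distance between ratios in the 4 large classes, the 5 genes of 6139 most like Mrpl41 were Selenom, Bsg, Rnaset2a, Haghl and Tecr, and none is a member of the family. Selenom, which encodes a selenoprotein of the endoplasmic reticulum, was nearest (distance 0.19), with 102 and 168 CPM in astrocyte-like cells. Tecr, an enzyme that lengthens fatty acids, had 339 and 513 CPM.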

How the data were processed

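The authors deposited UMI counts without normalization, 1 matrix per library, written by Cell Ranger 4.0.0 according to the file headers. Besides Cell Ranger, mm10, R 4.0.3 and Seurat 3.0 appear in the submitters' processing notes. The annotation release and strand setting of the counting are not given in the sources used here. Per the labels' protocols, 12 or 13 indexing cycles were used, without saying which library had which.

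Barcodes under 500 genes or above 20% mitochondrial UMIs were left out, which removed 1998 of 7150 wildtype and 1702 of 9182 knockout barcodes. The automatic threshold of Scrublet (scanpy 1.11.5) marked 0 wildtype cells and was set aside. The cells with the highest doublet scores, 0.8% per 1000 cells, were removed instead (212 and 448), leaving 4940 and 7032. A cell joined the class with the most markers detected, with at least 3 and a lead of 2. Own markers, and no other class's, were among the top 10 genes of each of the 7 classes. The cell cycle gene Top2a was in the top 10 of neuroblast-like cells, and no class of cycling cells was gated. In all 716 wildtype (14.5%) and 581 knockout cells (8.26%) met no rule.

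UMIs were summed per class and library and divided by the class total (CPM). With 1 library per group there was no test. Intervals are exact 95% Poisson, conditional binomial or Clopper-Pearson intervals, and those on differences between classes are normal approximations. They cover counting error only. A gene counts as called at a log2 ratio of 0.5 or more, or -0.5 or less, with 10 CPM added. The interval code was tested on simulated data. Transcript lengths and overlaps came from GENCODE M21, which holds 99.8% of the gene identifiers.

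Named members are Mrpl41, the 8 members at each end of the ratios in the largest class, the 4 highest and 4 lowest levels, the 4 widest spans, those past 0.5 in 2 or more large classes, up to 4 at each end of each pathway list, the 5 genes nearest to Mrpl41 and its neighbours. Gtpbp5 and Mtrfr of the lists were not matched to a row. Members and lists were chosen with earlier results of these data known. The rule for gating cells, the doublet rule, the subsets of astrocyte-like cells, the split by length, the share of the family's UMIs and the differences between classes were set after the data were seen.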

Additional observations from a re-analysis of the deposited data

How the results depend on the processing

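No paired analysis was possible because each genotype has 1 library, and for the same reason no replicate could be left out. Over 18 alternatives, 189 of 283 values stayed within counting error or within 1.5 times a count, 82 moved and 12 changed sign. In astrocyte-like cells Mrpl41 ranked first among the members under 17 of 19 settings, the reported one included, and second under the others. Its place was 19 to 53 in oligodendrocyte-like, 21 to 48 in neuroblast-like and 33 to 60 in microglia-like cells. Values below are log2 ratios, counts are members at 0.5 or more with the share of all measured genes in brackets, and excess means Mrpl41 minus the family median. Values of Mrpl41 with a trend removed have 10 CPM added, so they start from 0.76 in astrocyte-like cells. Except where stated, the cause of a move was not tested.

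Scaling by a trimmed mean gave in astrocyte-like cells a median of 0.43, Mrpl41 of 1.00, sum of 0.50 and count of 22 (3.39% of genes) and in oligodendrocyte-like cells a median of 0.20 and sum of 0.25. Neuroblast-like cells then had a median of 0.36, sum of 0.39 and count of 8 (2.16% of genes). Weighing each cell the same gave in astrocyte-like cells a median of 0.17, Mrpl41 of 0.75, sum of 0.22 and count of 1 (0.348% of genes) and in oligodendrocyte-like cells a median of 0.0581 and sum of 0.083. This left neuroblast-like cells with a median of 0.20, excess (sign changed) of -0.0618, sum of 0.20 and count of 3 (1.56% of genes). Thinning each cell to 2000 UMIs gave in astrocyte-like cells a median of 0.26, Mrpl41 of 0.92, excess of 0.57, sum of 0.35 and count of 6 (1.35% of genes) and in oligodendrocyte-like cells a median of 0.12, Mrpl41 (sign changed) of -0.0831, excess (sign changed) of -0.19 and count of 5 (2.5% of genes). In neuroblast-like cells it gave a median of 0.36, excess (sign changed) of -0.0683, sum of 0.38 and count of 14 (7.37% of genes). In microglia-like cells the median was 0.48 and the count 6 (9.22% of genes). Members measured after thinning were 67 in oligodendrocyte-like, 52 in neuroblast-like and 15 in microglia-like cells. Removing the length trend gave in astrocyte-like cells a median of 0.22 and Mrpl41 of 0.61 and in oligodendrocyte-like cells a median of 0.0707 and excess (sign changed) of -0.0379. Neuroblast-like cells then had a median of 0.13 and count of 0 (0.934% of genes) and in microglia-like cells a median of 0.11, Mrpl41 (sign changed) of -0.0771 and count of 8 (4.05% of genes). Removing the GC trend gave in astrocyte-like cells a median of 0.33 and count of 4 (0.892% of genes) and in oligodendrocyte-like cells a median of 0.17 and excess (sign changed) of -0.0042. This left neuroblast-like cells with a median of 0.30 and count of 3 (1.41% of genes). Removing both trends gave in astrocyte-like cells a median of 0.22, Mrpl41 of 0.59 and excess of 0.37 and in oligodendrocyte-like cells a median of 0.0688 and excess (sign changed) of -0.0363. In neuroblast-like cells it gave a median of 0.11 and count of 0 (1.02% of genes) and in microglia-like cells a median of 0.0892, Mrpl41 (sign changed) of -0.0958 and count of 8 (3.97% of genes). The same mix of clusters gave in astrocyte-like cells a median of 0.12, Mrpl41 of 0.62, sum of 0.17 and count of 1 (0.181% of genes). Adding 1 CPM gave in astrocyte-like cells a median of 0.34 and count of 6 (2.44% of genes) and in oligodendrocyte-like cells a median of 0.16, excess (sign changed) of -0.0005 and count of 1 (2.97% of genes). Neuroblast-like cells then had a median of 0.26 and count of 6 (2.68% of genes) and in microglia-like cells a count of 23 (10.5% of genes). Adding 50 CPM gave in astrocyte-like cells a median of 0.17 and count of 1 (0.203% of genes) and in oligodendrocyte-like cells a median of 0.0833. This left neuroblast-like cells with a median of 0.14 and count of 0 (0.103% of genes) and in microglia-like cells a median of 0.16 and count of 2 (1.16% of genes). A minimum of 200 UMIs gave in neuroblast-like cells a count of 0 of 73 measured members (0.401% of genes). In microglia-like cells it gave a median of 0.40 and count of 2 of 8 measured members (5.91% of genes). A fold of 0.3 gave in astrocyte-like cells a count of 34 (5.91% of genes) and in oligodendrocyte-like cells a count of 6 (3.4% of genes). In neuroblast-like cells it gave a count of 23 (5.73% of genes) and in microglia-like cells a count of 37 (19% of genes). Classes from clusters gave in neuroblast-like cells a sum of 0.29 and count of 11 of 74 measured members (2.98% of genes). In microglia-like cells they gave an excess (sign changed) of 0.0175. A stricter filter on cells (1000 genes, 10% mitochondrial) gave in oligodendrocyte-like cells an excess (sign changed) of -0.0015 and in neuroblast-like cells a count of 2 (0.713% of genes). A stricter gate gave in neuroblast-like cells a count of 2 (0.581% of genes). A total without mitochondrial, ribosomal protein and hemoglobin genes gave in neuroblast-like cells a median of 0.28, sum of 0.30 and count of 3 (1.02% of genes).

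Alternatives with GC content or the mix of clusters were chosen after seeing the data. In microglia-like cells Mrpl41 has too few UMIs for the minimum of 200, and after thinning it was below 50 UMIs. Depth limits the 3 small classes most, where Mrpl41 has 33 to 122 UMIs in all.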
